A study of Mus musculus with 12 samples.

Results

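Wide regions of accessible chromatin were taken as the peaks of at least 2000 bp on chromosomes 1 to 19 of an ATAC-seq study of mouse skin and its squamous carcinomas. Of 173640 peaks on these chromosomes (177240 in the whole list), 3534 (2.04%) met this limit. The rule used width alone and no count, but the widths may come from peaks called on these same reads. The tumour samples were K14 Epcam+ (n = 1), Lgr5 Epcam+ (n = 2) and Lgr5 Epcam- (n = 1), and the normal samples were hair follicle (HF, n = 1) and interfollicular epidermis (IFE, n = 1) of WT mice. All tumour mice carried p53fl/fl and Rosa-YFP+/+ alleles, with a Cre under the K14 promoter of basal keratinocytes (K14CreER) or under that of Lgr5, a gene of follicle stem cells (Lgr5CreER). CreER is a recombinase that tamoxifen activates, and the YFP reporter marks recombined cells. All mice were female and of mixed strain, per the labels, which give no age. Tumour cells were sorted with antibodies to CD45, CD31, CD140a and Epcam, a surface protein of epithelial cells. Whether a sample is 1 animal or a pool, and whether both Lgr5 Epcam+ samples come from different mice, is not given in the labels. The p-values therefore reflect no more than how these samples vary, possibly for technical reasons. Where tissues or tumour origins are pooled, that spread also includes their differences.

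In ATAC-seq the transposase Tn5 inserts adapters where DNA is not wrapped on nucleosomes, so the number of reads in a region follows how open it is. An open region of a single regulatory element is short. Wide ones are known from CpG-rich promoters and from places where several transcription factor sites lie close together, which in skin include the loci of keratins and of the adhesion proteins that hold keratinocytes to each other. In the peak list the name of every peak carries the word "merge", and how peaks were called or joined is not given in the sources used here. A wide peak can therefore be 1 long open region or several neighbouring ones.

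Sequences are shown first for 5 of the gene starts in wide peaks that are described below and for the miRNAs in them. RefSeq promoters run from 250 bases before to 50 after the annotated start, on GRCm38.p6, whose coordinates are those of mm10. Capitals mark the AP-1 motif TGANTCA and the GC box GGGCGG on either strand. The promoters are those of Plaur (chr7:24462233-24462532, + strand), the urokinase receptor, and Twist1 (chr12:33957421-33957720, + strand), a transcription factor of the epithelial to mesenchymal transition (EMT), whose wide peaks were higher in tumours. Krt5 (chr15:101712856-101713155, - strand), the keratin of basal cells, was lower in Lgr5 Epcam- cells, while Nfix (chr8:84780033-84780332, - strand), a nuclear factor I gene, and Emx2 (chr19:59458440-59458739, + strand), a homeobox gene, were higher there.
Plaur: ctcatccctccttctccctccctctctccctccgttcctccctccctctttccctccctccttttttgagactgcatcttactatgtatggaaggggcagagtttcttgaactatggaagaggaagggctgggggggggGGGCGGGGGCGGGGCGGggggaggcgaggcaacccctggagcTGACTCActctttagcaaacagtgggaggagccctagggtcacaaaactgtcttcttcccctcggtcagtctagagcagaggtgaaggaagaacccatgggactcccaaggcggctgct
Twist1: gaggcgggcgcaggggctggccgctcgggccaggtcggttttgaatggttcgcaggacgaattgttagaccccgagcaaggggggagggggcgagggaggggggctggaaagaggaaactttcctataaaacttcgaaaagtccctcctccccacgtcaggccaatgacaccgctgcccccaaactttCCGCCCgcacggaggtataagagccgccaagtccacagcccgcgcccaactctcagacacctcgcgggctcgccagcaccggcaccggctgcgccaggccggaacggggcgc
Krt5: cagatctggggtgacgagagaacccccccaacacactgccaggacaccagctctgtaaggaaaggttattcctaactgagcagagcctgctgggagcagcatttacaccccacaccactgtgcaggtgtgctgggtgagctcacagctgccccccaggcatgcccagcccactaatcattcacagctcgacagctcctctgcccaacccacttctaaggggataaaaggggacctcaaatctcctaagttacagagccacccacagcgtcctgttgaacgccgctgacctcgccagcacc
Nfix: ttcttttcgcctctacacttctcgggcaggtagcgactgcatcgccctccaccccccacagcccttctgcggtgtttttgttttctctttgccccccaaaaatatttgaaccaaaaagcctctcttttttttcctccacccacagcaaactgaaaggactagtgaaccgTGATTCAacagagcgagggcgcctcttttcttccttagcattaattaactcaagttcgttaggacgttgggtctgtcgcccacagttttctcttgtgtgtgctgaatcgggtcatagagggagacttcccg
Emx2: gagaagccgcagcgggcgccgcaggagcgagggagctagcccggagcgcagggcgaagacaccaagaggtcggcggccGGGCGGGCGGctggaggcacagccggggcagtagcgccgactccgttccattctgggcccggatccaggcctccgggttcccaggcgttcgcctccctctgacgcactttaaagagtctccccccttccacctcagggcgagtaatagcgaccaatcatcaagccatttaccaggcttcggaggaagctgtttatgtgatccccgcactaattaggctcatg

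The Plaur promoter held 1 AP-1 motif and 3 GC boxes, and the Nfix promoter held 1 AP-1 motif and 0 GC boxes. The Twist1 promoter had 1 GC box and 27 CpG dinucleotides, the Emx2 promoter 2 overlapping GC boxes and 26 CpG, and the Krt5 promoter none of either motif and 6 CpG. Over all RefSeq promoters with a start in a wide peak (570), the median GC content was 62.7% and the median number of CpG was 20. Promoters with a start in another peak (15924) had 59.7% and 19, and those with a start in no peak (14902) had 47.3% and 3. A GC box was found in 61.6% of the promoters in wide peaks, 57.3% of those in other peaks, 12.2% of those in none and 36.0% of all. The AP-1 motif was found in 6.84%, 7.37%, 8.39% and 7.85%. Of the other motifs searched on both strands, CCAAT was found in 25.8%, 37.2%, 37.9% and 37.3% of the same classes, the Runx motif TGTGGTT in 2.63%, 4.07%, 6.76% and 5.32% and the TEAD motif GGAATG in 13.7%, 13.1%, 16.2% and 14.6%. CCAAT and the Runx motif were thus less frequent in promoters of wide peaks than in those of other peaks, while the others lay closer. A match describes the sequence, not a bound site.

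Hairpins of miRNAs overlapped 13 of the wide peaks (0.368%). They overlapped 18 peaks of 1500 bp up to the limit (0.220%) and 195 narrower ones (0.120%). A longer peak has more length in which a hairpin can fall, and these classes covered 8.32, 13.87 and 180.2 Mb. Mature sequences of the miRNAs are shown for the wide peaks described below, with the seed (bases 2 to 8) in capitals. No pair of the sequences shown shares a seed.
miR-203-3p: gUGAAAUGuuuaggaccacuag
miR-203-5p: aGUGGUUCuugacaguucaaca
miR-26a-5p: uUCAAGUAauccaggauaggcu
miR-125b-5p: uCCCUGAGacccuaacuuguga
miR-3097-5p: cACAGGUGggaagugugugucca
miR-5130: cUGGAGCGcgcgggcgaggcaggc

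Summed counts in the peaks of chromosomes 1 to 19 ranged from 28622742 in HF to 56160345 in Lgr5 Epcam+ sample 1. The single-end and paired-end runs of a sample were summed on chromosomes 1 to 14, and the paired-end run was used alone on chromosomes 15 to 19, where the single-end run of K14 Epcam+ has fewer counts. Levels are CPM, counts per 1e6 of a library size scaled with TMM factors, in the whole peak unless given per kb. That size was taken from the peaks of chromosomes 1 to 14 in the runs used, so the levels of a sample do not sum to 1e6. Epcam, the sorted protein, carried no wide peak. Its 13 peaks, at most 1721 bp wide, had a median of 1.37 CPM per kb in Lgr5 Epcam- cells, against 5.35 and 5.16 in Lgr5 Epcam+ samples 1 and 2. K14 Epcam+ had 8.83, HF 4.38 and IFE 3.58.

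The wide peaks were 2000 to 7053 bp wide, with a median of 2230 bp and quartiles of 2100 and 2451 bp. Of them 767 reached 2500 bp, 239 reached 3000 bp and 36 reached 4000 bp. The median of all peaks was 1098 bp, and 29.2% of all peaks were 1000 bp or 1 base longer. Wide peaks covered 8.32 Mb, which is 4.11% of the covered length. Their share of the peaks of a chromosome ran from 1.45% on chromosome 18 to 2.65% on chromosome 11. At the limit, the 87 peaks less than 10 bp above it had median levels of 7.33 to 9.86 CPM over the 6 samples, and the 97 peaks at most 10 bp below it had 6.18 to 8.38 CPM.

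Counted per peak, gene starts were more frequent in wide peaks than in narrow ones, but counted per length they were less frequent. Without chromosome 18, for which no start positions were used here, 445 of 3448 wide peaks (12.9%) held an annotated start, coding or not, against 12.04% of peaks of 1500 bp up to the limit and 7.51% of peaks under 1500 bp. A longer peak has more length in which a start can fall. Per Mb of covered length the peaks with a start numbered 54.8 in the wide class, 71.0 in the next and 67.4 in peaks under 1500 bp. At least 2 starts lay in 1.65%, 1.35% and 0.974% of them. A further 53.1% of the wide peaks lay inside a protein-coding gene and 24.2% within 50 kb of one. Only 9.77% lay farther away, against 11.3% and 17.2% of the narrower classes.

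**Figure D1:**
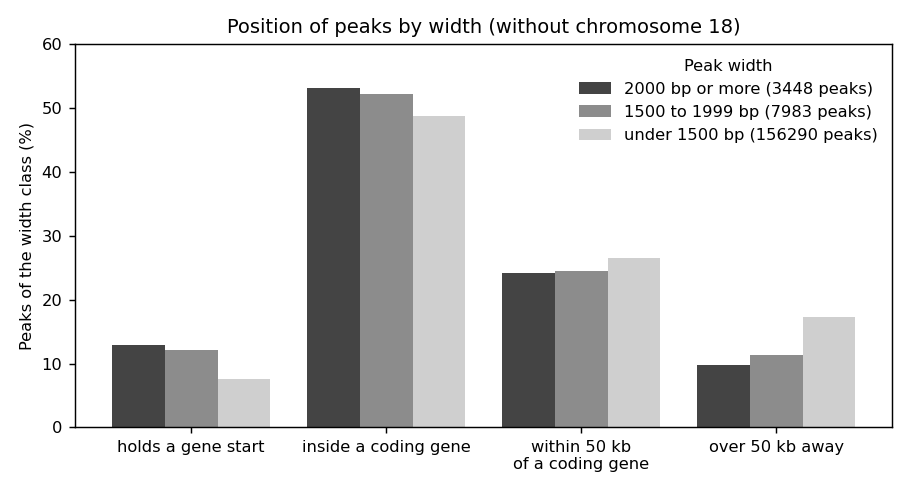
Share of peaks by position (vertical axis, percent of the width class) for wide peaks and for 2 narrower classes; each bar is 1 class. Wide peaks held a gene start in 12.9% and lay over 50 kb from a coding gene in 9.77%, against 7.51% and 17.2% of peaks under 1500 bp.

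Of 17749 protein-coding genes with any peak, 2408 (13.6%) carried a wide one. Each peak is carried by the coding genes whose start it holds, or else by the coding gene nearest to the peak within 50 kb. Most of the 2408 genes had 1 wide peak (1861 genes), 393 had 2 and 154 had 3 or more. Genes with a wide peak had a median of 14 peaks of any width, against 4 for the others, so the number of peaks a gene has moves with its chance to carry a wide one; its part in the list counts below was not tested.

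Genes of epithelial identity carried wide peaks most often among the 22 lists. In the basal keratinocyte list 13 of 14 genes did (92.9%), with Cd44, a hyaluronan receptor, and Col17a1, the hemidesmosome collagen, at 5 wide peaks each, and Trp63, the master transcription factor of stratified epithelia, at 4. In the list of epithelial adhesion and its regulators 18 of 25 did (72.0%). Pkp1, a desmosome plaque protein, had 4, and the desmosome genes Jup and Dsp had 3 each. Keratinocyte transcription factors followed with 19 of 30, hair follicle stem cell genes with 10 of 16, Ras-MAPK feedback genes with 8 of 14 and AP-1 and partner factors with 6 of 11.

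Other lists lay closer to the share of all genes. The counts were 6 of 15 TGF-beta pathway genes, 7 of 19 Wnt genes, 10 of 28 Klf and Sp genes, 6 of 17 mesenchymal genes, 4 of 12 EMT transcription factors and 13 of 39 Hox genes. Then came 3 of 10 melanocyte and Schwann genes, 5 of 20 stress and wound genes, 3 of 12 fibroblast and pericyte genes, 4 of 18 Sox genes and 8 of 40 Fox genes. At the low end were 3 of 20 epidermal differentiation genes, 1 of 12 endothelial genes (Vwf), 1 of 12 housekeeping genes (Eef1a1), 3 of 185 olfactory receptor genes and 0 of 14 immune genes. Counted per peak rather than per gene, 8.28% of the Hox peaks were wide, 6.73% of the adhesion peaks, 5.77% of the basal keratinocyte peaks and 4.97% of the AP-1 peaks, against 2.21% of all peaks with a gene. The Hox genes had a median of 3 peaks each and the basal keratinocyte genes 27.5.

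**Figure D2:**
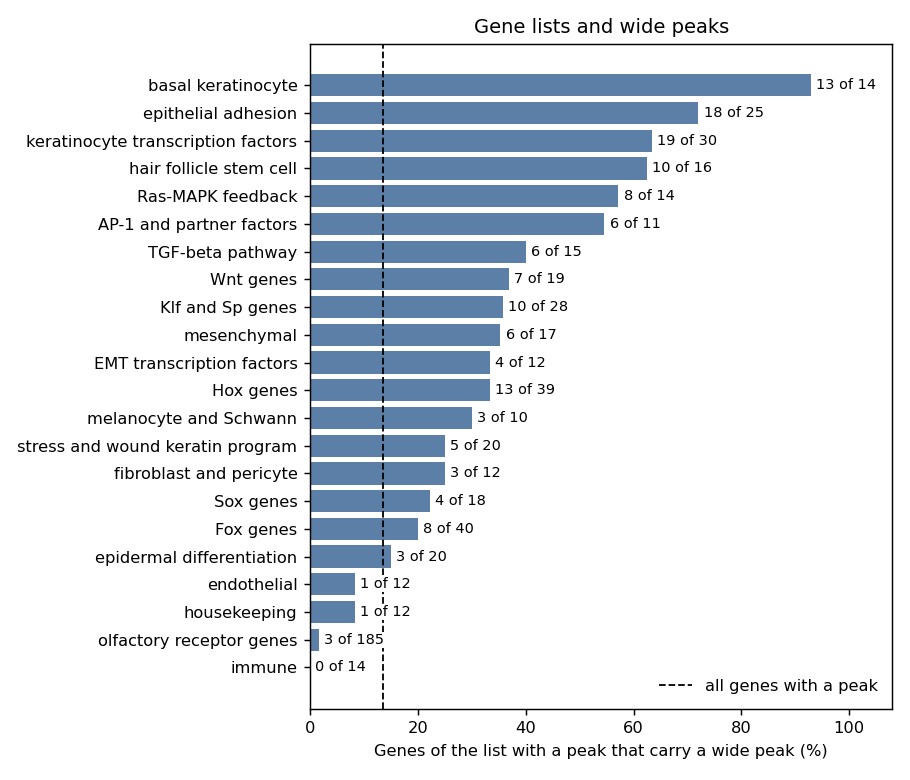
Share of the genes of each list with any peak that carry a wide peak (horizontal axis, percent), with the number of genes beside each bar; the dashed line is the share of all genes with a peak, 13.6%. Basal keratinocyte (13 of 14) and epithelial adhesion (18 of 25) genes lie highest and immune genes (0 of 14) lowest.

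The gene with the most wide peaks was Aopep, an aminopeptidase gene, with 8 of its 79 peaks. Mroh2a, Runx1, Cd9, Sfi1, Zfp978 and Tns3 were among the genes with 6, and Tns4 was among those with 5. The widest peak of all, 7053 bp, lay in Mrgpra3 on chromosome 7, a receptor gene of sensory neurons, and the second, 7036 bp, in Mroh2a on chromosome 1. The 10 widest also included peaks carried by Tns4, Trpm8, Mical2, Mrgpra3 and Aopep, and 2 had no coding gene within 50 kb. Of the peaks just named, that of Aopep was higher in Epcam+ tumours than in normal epithelia and that of Tns4 was lower in Lgr5 Epcam- than in Lgr5 Epcam+ cells, by the tests described below.

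Wide peaks were mostly alone: 2614 (74.0%) had no other within 20 kb, and 72 runs of 3 or more held 278. The longest run had 17 wide peaks in chr13:12815013-12939889, with Prl2c3, of the placental prolactin family, as its named gene. The second had 15 in chr1:88211424-88308783, over Ugt1a1, Mroh2a, Hjurp and Trpm8. Prl2c3 and Ugt1a1 belong to families of similar gene copies, as Zfp978 does. Reads of such copies may be shared, which was not tested, so levels near these genes are uncertain. The chromosome 1 run varied little between samples, with a median of 6.23 CPM per kb in Lgr5 Epcam-, 5.10 and 5.28 in Lgr5 Epcam+ samples 1 and 2, 4.97 in K14 Epcam+, 6.66 in HF and 5.68 in IFE. The Sfi1 run was denser, with 39.1, 27.2, 32.6, 32.8, 54.3 and 44.1 CPM per kb in the same order. Its levels are uncertain too. At its peak chr11:3152079-3154446 the Lgr5 Epcam- runs disagreed, with 184 CPM single-end and 525 CPM paired-end.

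Wide peaks held 4.81% of the counts in peaks of Lgr5 Epcam- (95% Wilson interval 4.80 to 4.81%), 5.18% (5.17 to 5.18%) and 4.65% (4.64 to 4.66%) of those of Lgr5 Epcam+ samples 1 and 2, and 4.78% (4.77 to 4.79%) of those of K14 Epcam+. HF had 4.69% (4.69 to 4.70%) and IFE 4.67% (4.66 to 4.68%). The intervals cover counting error only. The Lgr5 Epcam+ samples had the highest and the lowest of the 6 shares, so no order of the groups can be read from these shares. On chromosome 17 the peak chr17:39843030-39846322 overlapped no gene of the RefSeq set used here. It held 2.12 to 2.95% of the wide-peak counts in tumours and 5.42% and 5.71% in HF and IFE. Its runs disagreed, with 4226 to 9833 counts single-end and 37300 to 80712 paired-end over the 6 samples, so its level is uncertain. Without this peak, an alternative chosen after seeing the data, the shares were 4.67, 5.06, 4.56 and 4.69% in the tumours (Lgr5 Epcam-, Lgr5 Epcam+ 1 and 2, K14 Epcam+), and 4.45 and 4.42% in HF and IFE.

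Per kb, wide peaks were also denser than narrow ones in every sample. Their median was 4.31 CPM per kb in Lgr5 Epcam-, 5.08 and 4.54 in Lgr5 Epcam+ samples 1 and 2, 4.43 in K14 Epcam+, 4.07 in HF and 4.21 in IFE. Peaks under 1500 bp had 3.05, 2.76, 2.78, 2.91, 2.67 and 2.69 in the same order. At the upper end the classes lay closer: the 90th percentile of the wide peaks was 11.4 to 21.1 CPM per kb over the samples and that of the peaks under 1500 bp was 10.9 to 18.5. Across samples the level of a wide peak varied less, with a median range over the 6 samples of 1.64 on the log2 scale, against 1.91 for peaks under 1500 bp. Lower counts in the narrow peaks widen such a range too. If widths were called from these same reads, more reads could also give wider peaks, which was not tested.

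**Figure D3:**
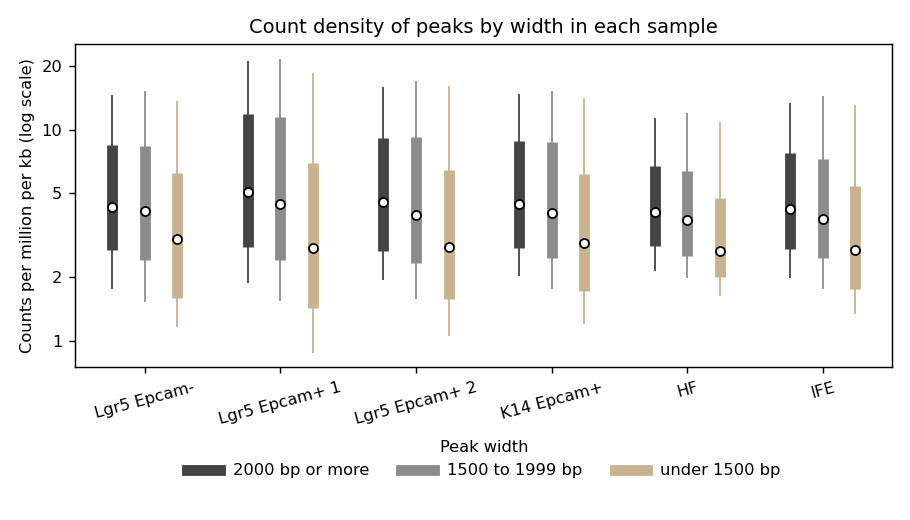
CPM per kb (log scale) of the peaks of each width class in each sample; circles are medians, thick bars quartiles and thin lines the 10th to 90th percentiles over peaks. Wide peaks have the highest median in all 6 samples, 4.07 to 5.08.

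Over the wide peaks, Pearson's r of log2 CPM was 0.923 between Lgr5 Epcam+ sample 1 and K14 Epcam+, 0.881 between the Lgr5 Epcam+ samples and 0.765 between HF and IFE. Lgr5 Epcam- had 0.645 to 0.667 with the Epcam+ tumours and 0.387 and 0.347 with HF and IFE. These values describe peaks that share their libraries, and each was lower than that over all peaks. The sample with the highest level was Lgr5 Epcam+ sample 1 in 30.6% of the wide peaks and 18.7% of all peaks. It was Lgr5 Epcam- in 20.3% and 22.9%, and IFE in 18.96% and 23.04%. Lgr5 Epcam+ sample 1 also had the most counts in peaks, 56160345, and a link of depth to the widths was not tested.

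The first comparison asks how wide peaks differ between Epcam+ tumours and the normal epithelia. Its test took HF and IFE as replicates of normal epithelium, and Epcam+ tumours of both origins as replicates of tumour. Differences between these tissues and origins therefore enter its standard errors and p-values. Of 3534 wide peaks, 640 (18.1%) were higher and 385 (10.9%) lower in the 3 Epcam+ tumours (edgeR quasi-likelihood test, adjusted p under 0.05 over 173638 peaks). Of all peaks, 15.1% were higher and 15.2% lower, 30.2% in either direction. In bulk samples fewer cells of a type and a lower signal per cell cannot be told apart. The median log2 ratio of wide peaks was 0.19, against -0.00 for all peaks. This balance rests on the scaling. With loess scaling by level, 427 wide peaks were higher and 806 lower, with a median of -0.38 (all peaks 0.01). With total-count scaling, which moved the median of all peaks to -0.20, 569 were higher and 535 lower, with a median of -0.01. No direction for wide peaks as a class is therefore given. The 12 peaks with the largest ratios, named first below, kept their direction and call under both. They were picked for large ratios, so this does not speak for the other wide peaks. Without Lgr5 Epcam+ sample 1 the counts were 339 and 165, without HF 426 and 284, without IFE 478 and 243, and without K14 Epcam+ 538 and 238.

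The largest increases lay near genes of varied roles. These peaks were picked by this ratio, so a gap between tumours and normals follows from the choice. The peak 29.4 kb from Lta4h, which makes leukotriene B4, had 60.03 CPM in K14 Epcam+, with 74.4 and 70.5 in Lgr5 Epcam+ samples 1 and 2, against 5.79 in HF and 5.60 in IFE. Every Epcam+ tumour was above both normals, and the log2 ratio was 3.58 ± 0.28 (SE, adjusted p = 0.000398 by edgeR). The peak inside Osbpl3, an oxysterol-binding protein, had 43.8 CPM in K14 Epcam+, with 72.7 and 58.9 in Lgr5 Epcam+ samples 1 and 2, against 5.03 and 5.17 in HF and IFE (log2 ratio 3.52 ± 0.32, adjusted p = 0.000398). Peaks of Klhl42, Nsmce2, Camta1 and Sertad2 rose by log2 ratios of 3.41, 3.32, 3.31 and 3.25. Lgr5 Epcam- cells, which this comparison leaves out, had 51.1 CPM at Lta4h, below the Epcam+ tumours, and 51.6 CPM at Osbpl3, inside their range. At Camta1 and Sertad2 they had 16.7 and 12.8 CPM, below the Epcam+ tumours.

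All 6 wide peaks of the stress and wound list rose, where 18.1% of all wide peaks were higher and 10.9% lower. At the start of Plaur, shown above, the wide peak chr7:24461075-24463147 had 51.3 CPM in K14 Epcam+, with 72.6 and 67.5 in Lgr5 Epcam+ samples 1 and 2, against 7.90 and 8.23 in HF and IFE. The groups did not overlap (log2 ratio 2.98 ± 0.29, adjusted p = 0.000398). The peak near Plau, urokinase, the protease that binds this receptor, had 35.3, 46.0 and 25.4 CPM in the same tumours, against 4.96 and 4.24 in HF and IFE (2.95 ± 0.37, adjusted p = 0.000626). Krt17 and Krt6a, keratins of wounded epidermis, rose by 2.06 and 1.81, and both wide peaks of Cxcl1, a chemokine, by 1.56 and 1.89. With loess scaling 5 of the 6 passed.

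Wide peaks of Ras-MAPK feedback genes were higher at Dusp5 (2.61), Dusp6 (2.5), Phlda1 (1.74) and Dusp4 (1.61) and lower at Spred2 (-1.24), 4 higher and 1 lower of 10. Over all wide peaks 18.1% were higher and 10.9% lower. Dusp4, Dusp5 and Dusp6 are phosphatases of MAP kinases. The Dusp6 peak had 26.7 CPM in K14 Epcam+, with 30.2 and 40.5 in Lgr5 Epcam+ samples 1 and 2, against 6.69 and 4.78 in HF and IFE (adjusted p = 0.000815). At Dusp5 the tumours had 57.1, 59.3 and 20.7 CPM in that order and HF and IFE 6.73 and 8.19, so the Lgr5 Epcam+ samples lay apart from each other while both exceeded the normals. Of 8 wide peaks of TGF-beta genes 3 rose and 0 fell, in Smad3 (2.69), a mediator of the pathway, Smad7 (1.22), its inhibitor, and Skil (0.76). With window centring 1 of these 8 passed, and with loess scaling 1 fell. Of 9 wide peaks of AP-1 and partner factors 2 rose, of Atf3 (1.64) and Fos (1.18), a share near the 18.1% of all wide peaks.

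Among EMT genes the wide peak at the start of Twist1 rose. It had 17.97 CPM in K14 Epcam+, with 31.1 and 25.3 in Lgr5 Epcam+ samples 1 and 2, against 4.83 and 4.67 in HF and IFE (log2 ratio 2.38 ± 0.36, adjusted p = 0.00123), and 37.7 in Lgr5 Epcam-. The wide peak of Snai1 (0.99, adjusted p = 0.0778), the 3 of Hmga2 and that of Sox4 did not pass, so 1 of 6 in the list was called. That share is near the 18.1% of all wide peaks that were higher. Of 8 mesenchymal wide peaks 4 rose, both of Sparc (1.04 and 1.13) and 1 each of Itga5 (2.27) and Fbn1 (1.48), matrix and integrin genes. With loess scaling only Itga5 of these passed. That of Vim had a log2 ratio of 1.03 (adjusted p = 0.0646).

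Wide peaks of 1 list could go both ways. In the basal keratinocyte list 4 rose and 5 fell of 28, where 18.1% of all wide peaks rose and 10.9% fell. Cd44 had 3 that rose, by 1.75, 2.36 and 1.88, and Lama3, a laminin chain of the basement membrane, had 1 (1.17). Trp63 had 3 that fell, by 1.31, 1.35 and 1.13 on the log2 scale, and 1 at 0.68 that did not pass. The Trp63 peak with the largest decrease had 4.13 CPM in K14 Epcam+, with 5.13 and 5.45 in Lgr5 Epcam+ samples 1 and 2, against 12.4 in HF and 12.7 in IFE. Of the 5 wide peaks of Foxp1, a forkhead factor, 3 rose (2.57, 1.961 and 2.04) and the others had 1.29 and 0.59.

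Of 19 wide peaks of hair follicle stem cell genes 6 fell and 0 rose, where 10.9% of all wide peaks fell and 18.1% rose. Both peaks near Lhx2, a factor of follicle stem cells, fell by 2.20 and 1.54 on the log2 scale. The first had 2.98 CPM in K14 Epcam+, with 4.26 and 4.18 in Lgr5 Epcam+ samples 1 and 2, against 29.1 in HF and 5.93 in IFE, so the tumours lay just below IFE and far below HF. Nfatc1, Lrig1, Tcf7l2 and Nfib fell at 1 wide peak each, by 1.60, 1.38, 1.30 and 1.22. The fall at Tcf7l2 rests in large part on IFE, which had 11.2 CPM per kb where HF had 4.65. K14 Epcam+ had 2.60 there, and Lgr5 Epcam+ samples 1 and 2 had 2.98 and 4.06, the last close to HF. The wide peaks of Lgr5 (-0.49, adjusted p = 0.457) and Tbx1 (0.34, 0.693) did not pass. Keratinocyte transcription factors had 6 higher and 10 lower of 42 (3 and 16 with loess scaling, 4 and 5 with window centring). Over all wide peaks 18.1% were higher and 10.9% lower (12.1% and 22.8% with loess scaling, 19.1% and 9.42% with window centring). Tfap2b (-2.00 and -1.12), Gata3 (-2.09 and -1.16) and Nfix (-1.39) were among the lower and Pitx1 (1.63) among the higher.

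The largest decreases included an imprinted gene. Inside Peg3, a zinc finger gene expressed from the paternal allele, the wide peak had 13.1 CPM in K14 Epcam+, with 12.1 and 16.9 in Lgr5 Epcam+ samples 1 and 2, against 131 in HF and 115 in IFE (log2 ratio -3.14 ± 0.24, adjusted p = 0.000398), and 17.2 in Lgr5 Epcam-. All 4 tumour samples lay below both normals. The peak of Slc25a38, a mitochondrial glycine carrier, had 5.12, 5.43 and 3.42 CPM in the same Epcam+ tumours, against 35.4 and 38.2 in HF and IFE (-2.98 ± 0.34, adjusted p = 0.000487). LOC115488789 and Prune2 fell by 3.19 each and Gnb1l and Tbck by 3.06 each. The last 3 rest in part on HF, which had 50.4, 69.5 and 66.8 CPM at Prune2, Gnb1l and Tbck, where IFE had 13.5, 22.0 and 8.405. Without HF their log2 ratios were -1.95, -2.00 and -0.90, and Tbck no longer passed (adjusted p = 0.217).

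**Figure D4:**
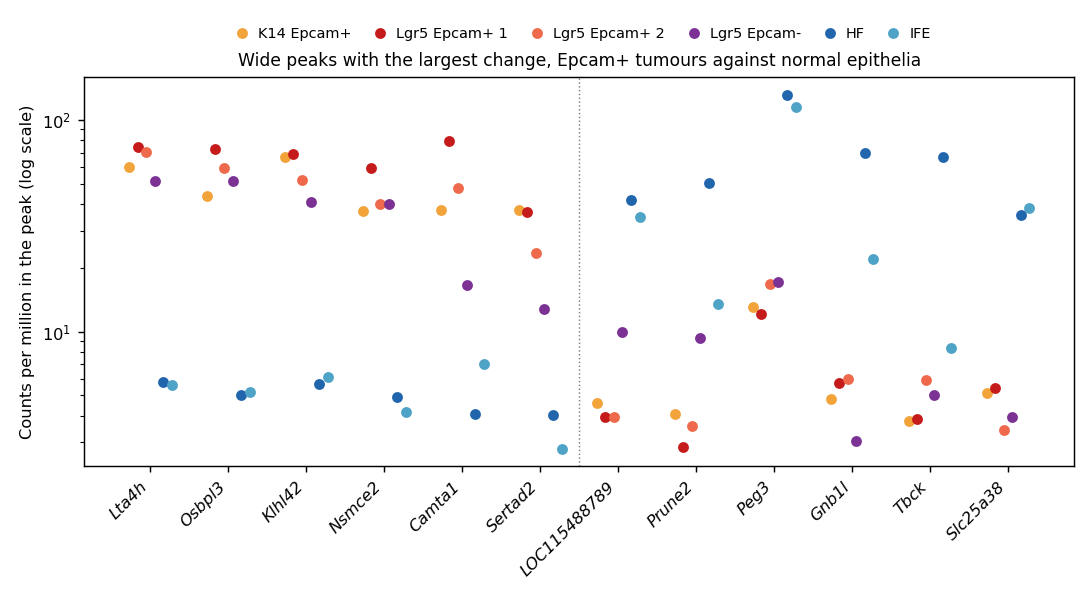
CPM (log scale) in each sample for the 6 higher (left of the dotted line) and 6 lower wide peaks with the largest log2 ratio between Epcam+ tumours and normal epithelia; 1 point is 1 sample. At Lta4h the Epcam+ tumours lie at 60.03 to 74.4 against 5.60 and 5.79, and at Peg3 at 12.1 to 16.9 against 115 and 131.

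By position, 21.8% of the 445 wide peaks with a gene start were higher in Epcam+ tumours and 6.07% lower, while over all peaks with a start the shares were 10.6% and 6.14%. Inside genes 17.8% of the wide peaks were higher and 10.6% lower (all peaks 14.5% and 15.7%). Over 50 kb from coding genes 15.9% were higher and 18.8% lower (16.8% and 19.03%). These shares by position are from the main scaling alone, and the balance over all wide peaks moved with the scaling, so no direction is given. Of the wide peaks with a miRNA hairpin, those of Mir3097 (1.66) and Mir5130 (1.35) rose and that of Mir26a-2 fell by 1.30. The Mir26a-2 peak, in Ctdsp2, had 2.96 CPM in K14 Epcam+, with 2.46 and 4.21 in Lgr5 Epcam+ samples 1 and 2, against 7.28 and 8.48 in HF and IFE (adjusted p = 0.0267). The peak of Mir125b-1 had 14.8 to 29.2 CPM in the 6 samples and was not called.

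The second comparison sets Lgr5 Epcam- cells against Lgr5 Epcam+ cells and shows wide peaks of epithelial genes low in Lgr5 Epcam- cells. Of 3534 wide peaks, 97 (2.74%) were higher and 356 (10.1%) lower in the 1 Lgr5 Epcam- sample (edgeR, adjusted p under 0.05). Of all peaks, 6.70% were higher and 5.60% lower, 12.3% in either direction. The median log2 ratio was -0.11 for wide peaks and -0.04 for all. Here too the balance moved with the scaling: loess gave 213 higher and 206 lower with a median of 0.25 (all peaks -0.04), and total counts gave 205 and 351 with a median of 0.08 (all peaks 0.15). The test has 1 residual degree of freedom, from the Lgr5 Epcam+ pair, and assumes that the lone sample varies as the pair does. Leaving out either of the pair required a fit with HF and IFE as 1 group, whose difference then gave the spread. In it 0 wide peaks passed, with 426 (without sample 1) and 583 (without sample 2) at an unadjusted p under 0.05. The ratios stayed large, at -3.27 and -3.46 for Krt17 and 5.34 and 4.06 for Smad6, described below.

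Of 29 wide peaks of the epithelial adhesion list, 13 were lower and 0 higher, with a median of -1.49 (10 lower with loess scaling). Over all wide peaks 10.1% were lower and 2.7% higher (5.83% lower with loess scaling). Among the lower adhesion peaks were those in or near Esrp1, a splicing factor of epithelial cells, Pkp1 (2 peaks), Ovol1, Grhl2, Grhl3 and Grhl1, transcription factors of epithelia, Cdh1, E-cadherin, and Jup, Dsp and Dsg3. The Esrp1 peak had 8.90 CPM in Lgr5 Epcam- cells, against 79.0 and 58.2 in Lgr5 Epcam+ samples 1 and 2 (log2 ratio -2.95 ± 0.29, adjusted p = 0.000116). K14 Epcam+, HF and IFE had 51.4, 53.2 and 82.5, so the Epcam- sample stood below all others. At Grhl2 it had 7.27 CPM, against 55.5 and 30.99 in Lgr5 Epcam+ samples 1 and 2 (-2.57 ± 0.50, adjusted p = 0.00523), and at Cdh1 5.22, against 30.3 and 21.5 (-2.31 ± 0.47, adjusted p = 0.00673). The second wide peak of Cdh1 had a log2 ratio of -0.80 and did not pass.

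The keratin genes of basal and wounded epidermis were lower at each of their wide peaks. The peak over the Krt5 start, chr15:101712366-101716570 and 4205 bp wide, had 17.7 CPM in Lgr5 Epcam-, against 163 and 91.9 in Lgr5 Epcam+ samples 1 and 2 (-2.85 ± 0.35, adjusted p = 0.000387). HF and IFE had 123 and 133 CPM and K14 Epcam+ 80.5. Both wide peaks of Krt14, the partner of Krt5, fell by 2.61 and 2.26. At Krt17 Lgr5 Epcam- had 7.86 CPM, against 86.5 and 75.9 in Lgr5 Epcam+ samples 1 and 2 (-3.37 ± 0.31, adjusted p = 7.61e-05), and at Krt6a 6.98, against 86.8 and 59.3 (-3.39 ± 0.48, adjusted p = 0.000911). The Lgr5 Epcam- levels at Krt17 and Krt6a were also below HF and IFE. In the basal list 6 of 28 were lower and 0 higher, against 10.1% and 2.7% of all wide peaks. Trp63, Cd44 and most Col17a1 peaks did not pass.

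Other large decreases were at Gjb6, a connexin (-3.37), the kinase genes Prkd2 (-3.16) and Hunk (-3.15), and a peak within Nectin1, an adhesion receptor (-3.14), that also holds the start of a non-coding gene. All 4 of these stood at 2.995 to 4.12 CPM in Lgr5 Epcam-. Tns4, a tensin of focal adhesions, had 5 wide peaks in chr11:99067851-99096764, of which 4 fell, by 2.26, 1.98, 1.14 and 2.68 on the log2 scale. The widest had 7.03 CPM in Lgr5 Epcam-, against 38.8 and 28.7 in Lgr5 Epcam+ samples 1 and 2, and 20.7 to 23.2 in K14 Epcam+, HF and IFE. The wide peak with the miR-203 hairpin, a miRNA that represses Trp63 in the epidermis, had 11.4 CPM, against 63.4 and 35.1 (-2.10 ± 0.35, adjusted p = 0.00217). It was highest in IFE, at 86.0 CPM, with 36.3 in HF.

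The peaks that were higher in Lgr5 Epcam- cells had their 3 largest members on chromosome 9. The peak 23.6 kb from Smad6, an inhibitory Smad, had 271 CPM in Lgr5 Epcam-, against 16.3 and 6.67 in Lgr5 Epcam+ samples 1 and 2 (4.56 ± 0.36, adjusted p = 1.36e-05). Its runs disagreed, with 156 CPM single-end and 383 CPM paired-end. All 4 wide peaks of Yap1, a Hippo pathway coactivator, were higher, by 3.31 to 4.002, and that of Cfap300 beside it by 3.62. In the 5 Mb window of Yap1 and Cfap300 the median log2 ratio of all 326 peaks was 1.87, and centred on their windows the Yap1 and Cfap300 peaks named here had 2.17 and 1.78. At the Yap1 start the Lgr5 Epcam- runs had 265 and 935 CPM.

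**Figure D5:**
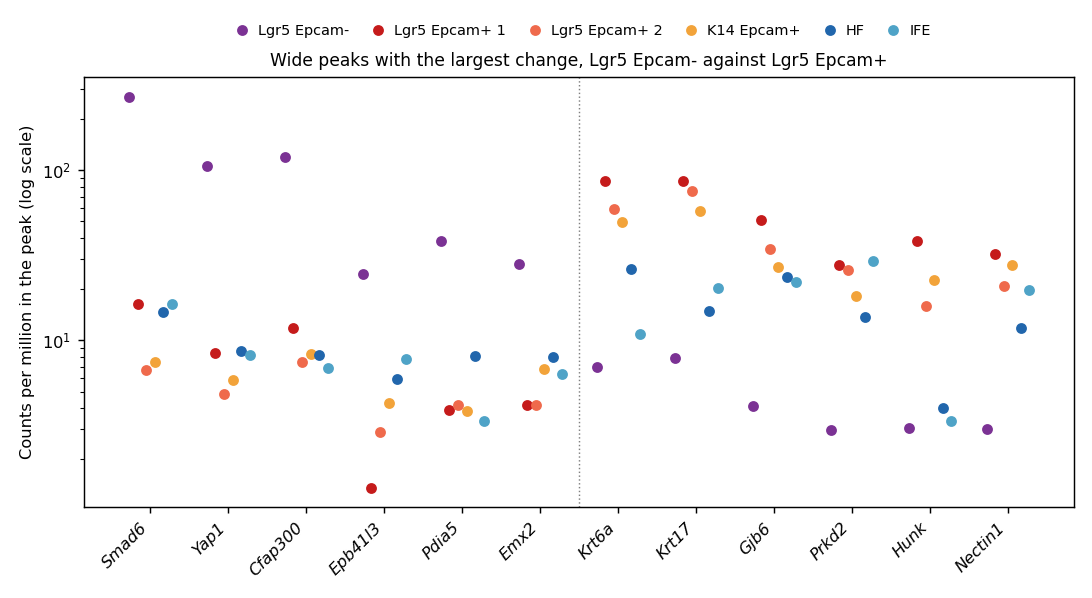
CPM (log scale) in each sample for the 6 higher (left of the dotted line) and 6 lower wide peaks with the largest log2 ratio between Lgr5 Epcam- and Lgr5 Epcam+; 1 point is 1 sample. At Smad6 Lgr5 Epcam- lies at 271 with the other samples at 6.67 to 16.5, and at Krt17 it lies at 7.86 with the others at 14.9 to 86.5.

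Away from chromosome 9, Epb41l3 (3.54), Pdia5 (3.25) and Emx2 (2.75) led the higher peaks. The Emx2 peak, chr19:59457295-59460041, had 28.2 CPM in Lgr5 Epcam-, against 4.17 and 4.20 in Lgr5 Epcam+ samples 1 and 2, and 6.33 to 7.98 in K14 Epcam+, HF and IFE (adjusted p = 0.00651). Of the 3 wide peaks of Nfix 2 were higher, and the one at its start had 31.8 CPM, against 6.45 and 13.4 (1.68 ± 0.44, adjusted p = 0.0215), and 22.6 and 24.4 in HF and IFE. The Cdh11 peak, of a mesenchymal cadherin, had 42.3 CPM, against 6.40 and 9.89 (2.38 ± 0.47, adjusted p = 0.00588). It was the 1 higher of 8 mesenchymal wide peaks, where 2.7% of all wide peaks were higher. None of the 6 wide peaks of EMT transcription factors was called, with log2 ratios from -0.59 to 0.72, though 5 were above 0.

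Markers of other cell types were measured over all their peaks. CD45, CD31 and CD140a, to which the sort used antibodies, mark immune cells, endothelial cells and fibroblasts, and a gate against them would remove these cells; the labels do not give the gate. The fibroblast and pericyte list had 32 peaks higher and 5 lower of 138 (12 of 12 genes). Of all peaks, 6.70% were higher and 5.60% lower. The summed level of this list was 907.5 CPM in Lgr5 Epcam-, against 659.5 and 739.1 in Lgr5 Epcam+ samples 1 and 2. Its median per kb was 4.27 CPM, against 1.90 and 2.32. Its 3 wide peaks included that of Pdgfra, the gene of CD140a, at 26.1 CPM, against 6.93 and 7.19 (1.88 ± 0.51, adjusted p = 0.0252). The immune list (14 of 16 genes with a peak) summed to 254.6 CPM, against 302.9 and 320.0, but its median per kb was higher, at 2.88 CPM against 2.26 and 2.55. The endothelial list (12 of 12) summed to 824.3 CPM, against 1031.1 and 892.0, with medians of 3.24 against 3.57 and 2.95 CPM per kb. The melanocyte and Schwann list (10 of 12) summed to 367.7 CPM, against 425.2 and 452.3, with medians of 2.48 against 2.49 and 2.46. Fewer peaks of these lists were called: 2 higher and 3 lower of 61 immune peaks and 4 and 4 of 149 endothelial peaks. Of 80 melanocyte and Schwann peaks 7 were higher and 4 lower. No marker peak was at 0 in any sample. The part of such cells in the values above was not tested.

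Between Epcam+ tumours of the 2 origins, 0 wide peaks differed by edgeR (of all peaks 0.00173% higher, 0.00691% lower and 0.00864% in either direction), with 198 at an unadjusted p under 0.05. DESeq2 also called 0, with 94 at that level. The median log2 ratio of Lgr5 Epcam+ over K14 Epcam+ was 0.17 (all peaks 0.04). Loess scaling gave -0.07 (all peaks 0.04) and total counts gave -0.02 (all peaks -0.155). Without Lgr5 Epcam+ sample 1 the median of wide peaks was 0.00. The Lgr5 Epcam+ samples themselves had a median log2 ratio of 0.19 (sample 1 over sample 2). That is as large as the median between the origins.

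HF and IFE have 1 sample each, so wide peaks were called by size: a log2 ratio of at least 1 in either direction, and at least 0.5 in each run used. By this rule 243 wide peaks (6.88%) were higher and 302 (8.55%) lower in HF, against 8.06% and 9.01% of all peaks (17.1% in either direction). Between the Lgr5 Epcam+ samples (1 over 2) this rule called 300 wide peaks in one direction and 111 in the other, where it called 7.58% of all peaks higher and 8.46% lower (16.0% in either direction). Samples of 1 group thus also gave many calls by size. With a limit of 2 it called 29 higher and 11 lower in HF, and 9 and 9 between those samples. Intervals below are exact 95% intervals for counting error.

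The wide peaks with the largest ratios nonetheless include follicle genes. The peak near Lhx2 had 29.1 CPM in HF and 5.93 in IFE (log2 ratio 2.28, 2.05 to 2.54), and its second 34.3 and 11.8 (1.53). Of 19 wide peaks of hair follicle stem cell genes 6 were higher in HF and 1 lower, against 6.88% and 8.55% of all wide peaks. The higher ones included those of Lgr5 (1.86), the stem cell receptor that drives the Cre, and Tbx1 (2.09). The lower was that of Tcf7l2 (-1.26). The largest ratios were at Actn1 (57.1 against 6.11 CPM, 3.21), Tbck (2.98), Vit (2.56), Tead4 (2.38) and Plekhg3 (2.34).

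Lower in HF were wide peaks of Nrip1 (4.51 against 25.7 CPM in IFE, -2.47, -2.91 to -2.12), Sgms1 (-2.43), Cpne8 (-2.24), Cfap58 (-2.19) and Pigp (-2.18). Gata3, a transcription factor of epidermis and follicle, had 9.90 CPM in HF and 45.5 in IFE (-2.19, -2.39 to -2.01). Of 29 adhesion wide peaks 7 were lower and 1 higher, against 8.55% and 6.88% of all wide peaks. Among the lower were 3 of the 4 Pkp1 peaks (-1.10 to -1.21) and 1 of Jup (-1.12). The miR-203 peak (-1.24) and Dsg1a (13.4 against 35.7 CPM, -1.40), a desmosomal cadherin of upper epidermis, were also lower in HF. These HF and IFE differences were described by size and not tested.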

How the data were processed

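Mouse skin cells from 6 samples were profiled by ATAC-seq, each in 2 runs (single-end and paired-end). The authors deposited raw counts per peak for 12 runs over 1 shared list of 177240 peaks. Per the submitters' processing notes, Bowtie2, HOMER, bedtools and HTSeq were used on mm10; their versions, the read filters and the way peaks were called are not given in those notes. The deposited peak positions (other values in the list) gave the widths. The share of counts in peaks was 21.3 to 51.1% per run.

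Runs were summed on chromosomes 1 to 14; the paired-end run was used alone on chromosomes 15 to 19, where the single-end run of K14 Epcam+ has fewer counts. Counts were compared with edgeR 4.0.16 (under R 4.3.3; low peaks removed by filterByExpr, minimum count 10; TMM scaling on chromosomes 1 to 14, robust quasi-likelihood F test, Benjamini-Hochberg adjustment over all peaks of chromosomes 1 to 19, threshold 0.05). Tumours against normal epithelia used 3 kinds of sample (3 residual degrees of freedom); the other tests used 5 groups (1 residual degree of freedom). The fits were tested on simulated data. Ratios between HF and IFE are of CPM with a prior count of 2. Gene starts, spans, promoters and miRNAs came from RefSeq GRCm38.p6; a peak belongs to coding genes whose start it holds, else to the nearest within 50 kb.

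The peaks named are the 10 widest, up to 6 higher and 6 lower per comparison by log2 ratio (1 per gene), the 10 genes with the most wide peaks, and list members with a wide peak (up to 6 per list by summed width, and up to 4 called per list and comparison). The width limit, members and lists were chosen with earlier results of these data known. One further allele of the tumour genotype and some genes that the naming rule selects are not reported here. Alternatives were other run choices, total-count, loess and window-centred scaling, no filter, DESeq2 1.42.0, leaving out each sample, width limits of 1500 and 2500 bp and genes within 10 kb.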

Additional observations from a re-analysis of the deposited data

How the results depend on the processing

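Medians over the wide peaks changed sign with the scaling, but total counts also moved the medians of all peaks. For Epcam+ tumours against normal epithelia, total-count and loess scaling gave -0.007 and -0.38 (all peaks -0.201 and 0.009). For Lgr5 Epcam- against Lgr5 Epcam+ they gave 0.08 and 0.25 (all peaks 0.151 and -0.041). For Lgr5 Epcam+ against K14 Epcam+ they gave -0.021 and -0.071 (all peaks -0.155 and 0.039). For HF against IFE they gave 0.061 and 0.117 (all peaks 0.121 and 0.021). With the all-peak median subtracted, the first comparison had 0.197 by the main scaling, 0.194 by total counts and -0.389 by loess. The second had -0.077, -0.071 and 0.291. The loess counts were 806 lower wide peaks in Epcam+ tumours, 213 higher and 206 lower in Lgr5 Epcam-, and 187 lower in HF; total counts gave 205 higher in Lgr5 Epcam-. Leaving out each sample gave 339 to 581 higher and 165 to 295 lower in Epcam+ tumours. Leaving out each Lgr5 Epcam+ sample gave 0 to 0 higher and lower in Lgr5 Epcam-, with medians of 0.015 and -0.218, and medians of 0.003 to 0.26 over K14 Epcam+. A log2 limit of 2 left 29 higher and 11 lower in HF. A width limit of 1500 bp gave shares of counts of 12.4% (Lgr5 Epcam-), 13.4 and 12.3% (Lgr5 Epcam+ 1 and 2), 12.6% (K14 Epcam+), 11.95% (HF) and 11.9% (IFE), and 2500 bp gave 1.38, 1.44, 1.24, 1.33, 1.43 and 1.39%. Of genes with a peak, 12.2% carried a wide peak within 10 kb, against 13.6% within 50 kb.

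All 12 peaks named per test kept direction and call under 5 alternatives (DESeq2, loess, total-count, window-centred, paired-end alone). They were picked for large ratios, so this does not speak for the other wide peaks. Without either Lgr5 Epcam+ sample, where the spread came from HF and IFE, none of the 12 in that test passed; their log2 ratios kept their sign, from -3.65 to -2.38 for the lower and 2.75 (Emx2) to 5.34 (Smad6) for the higher. Among the named peaks, Epb41l3 rests on as few as 31 counts in a sample. The cause of each change was not tested. No paired analysis was made, because the sample titles do not say which samples belong together.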
